A study of Arabidopsis thaliana with 15 samples.

Results

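Transcript levels of 10 Arabidopsis genes known as morning genes of the circadian clock are described here in 15 RNA-seq libraries. The genes are CCA1 (AT2G46830), LHY (AT1G01060), RVE1 (AT5G17300), RVE2 (AT5G37260), RVE4 (AT5G02840), RVE8 (AT3G09600), LNK1 (AT5G64170), LNK2 (AT3G54500), PRR9 (AT2G46790) and PRR7 (AT5G02810). They were taken by gene identifier from a table of 32678 named genes, and that rule uses no measured value. All libraries came from whole seedlings of wild-type Arabidopsis thaliana, ecotype Col, aged 10 days, raised on agar with sucrose in a long-day light cycle. Every group, controls included, had been moved from the plates to liquid medium for 2 h before treatment. The 5 groups of 3 libraries were solvent at 0 h, solvent at 2 h, solvent at 4 h, 5 µM GR244DO at 2 h and 5 µM GR244DO at 4 h. GR244DO is a stereoisomer of GR24, a synthetic strigolactone, with the configuration of the natural hormone 4-deoxyorobanchol. The labels do not say which solvent was used, how many seedlings made up a library, or whether the 3 libraries of a group came from separate plates, so p-values measure only the spread between libraries, which may be technical. The hour of the day of each harvest is not in the labels either, so time since the start of treatment, time in liquid and time of day cannot be told apart.

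The plant clock is a loop of transcription factors that repress or activate one another in turn. CCA1 and LHY, a pair of closely related MYB repressors, are made around dawn and hold down genes of the evening, such as TOC1, GI and ELF4. RVE4 and RVE8 are MYB activators of the same DNA-binding family, and they recruit the coactivators LNK1 and LNK2 to switch on genes of the afternoon and evening. The pseudo-response regulators PRR9 and PRR7 follow in the morning and repress CCA1 and LHY. RVE1 and RVE2, the latter also called CIRCADIAN1, belong to the same MYB family, are known as clock outputs and act in seed dormancy.

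Depth was 24.4 to 37.4 M reads (1 M is 1000000) assigned to genes per library, and 18370 to 18891 genes reached 1 RPKM, a unit in which reads are divided by gene length in kilobases and by assigned reads in M. All 11 shoot and root marker genes were above 0 in every library of these whole seedlings. The 5 shoot markers together lay at 14922 to 18261 RPKM in solvent at 0 h, 11528 to 11943 at 2 h and 9107 to 10505 at 4 h. Most of that sum was RBCS1A, a Rubisco small subunit gene with a mean of 15080 RPKM at 0 h and 9805 RPKM at 4 h. LHCB2.1, a light-harvesting gene, went from a mean of 1832 to 63.1 RPKM between 0 h and 4 h, while the trichome gene GL1 (1.04 and 1.75), the meristem gene STM (2.91 and 3.88) and the guard-cell gene FAMA (7.5 and 12.3) had the higher mean at 4 h. The 6 root markers together lay at 1251 to 1422, 1355 to 1381 and 1476 to 1535 RPKM in the same groups, most of it PYK10, a root beta-glucosidase gene (1097 RPKM at 0 h and 1275 at 4 h), while the endodermal gene CASP1 had the lower mean at 4 h (44.7 and 38.5 RPKM). With GR244DO the shoot sum was 10434 to 10956 RPKM at 2 h and 10115 to 11541 at 4 h, and the root sum 1493 to 1511 and 1503 to 1621. The part of these shifts in the results below was not tested. In whole seedlings, fewer cells that express a gene and less RNA of it per cell cannot be told apart. Replicates 1 and 3 of solvent at 4 h, 2 and 3 of solvent at 2 h and 1 and 2 of GR244DO at 4 h were closer to each other than the rest. Their read counts gave chi-square values per degree of freedom of 1.12, 1.71 and 1.84, against 3.72 to 18.6 for the other 12 pairs. These pairs still differed by more than sampling noise and were counted as separate libraries, and calls of the 10 genes that end when each pair is averaged are named.

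All 10 genes were detected in all 15 libraries, over a range from 0.0409 RPKM for PRR9 in 1 solvent library at 4 h to 20.8 RPKM for RVE2 in 1 GR244DO library at 4 h. The orders below depend on the gene lengths behind the RPKM values. Those lengths, recovered from the values, equalled a RefSeq TAIR10.1 transcript or exon length for RVE2 alone. For RVE8 the recovered length was 1424 bases and the RefSeq exons covered 2345, so close places in an order are uncertain. In solvent at 0 h the mean levels ran from 17.1 RPKM for RVE4 down through PRR7 (16.4), LNK2 (16.4), LNK1 (7.89), RVE2 (3.65), CCA1 (2.56), RVE8 (2.37), PRR9 (1.71) and LHY (1.58) to 1.47 RPKM for RVE1. The ranges of RVE4, PRR7 and LNK2 overlapped at that time, LNK1 and RVE2 stood apart from their neighbours, and each neighbour from CCA1 down to RVE1 overlapped with the next. In solvent at 2 h PRR7 led (11.6 RPKM), followed by RVE2 (8.11) and RVE4 (7.47), which overlapped, LNK1 (4.62) and LNK2 (3.71), which overlapped, RVE1 (0.939) and RVE8 (0.547), and then CCA1 (0.377), PRR9 (0.274) and LHY (0.228), each overlapping with the next. In solvent at 4 h the order was RVE2 (14.3 RPKM), RVE4 (6.36), PRR7 (3.95), LNK1 (2.03), LNK2 (0.851), RVE1 (0.771), RVE8 (0.251), LHY (0.110), PRR9 (0.0735) and CCA1 (0.0633). There each gene was apart from the next, except that LNK2 overlapped with RVE1, LHY with PRR9 and PRR9 with CCA1. RVE2 moved from the fifth place to the first, and CCA1 from the sixth to the last. With GR244DO the order at 2 h was PRR7 (13.9 RPKM), RVE4 (7.11), RVE2 (6.97), LNK1 (5.77), LNK2 (4.21), RVE1 (0.960), RVE8 (0.527), PRR9 (0.423), CCA1 (0.414) and LHY (0.245), where RVE4 overlapped with RVE2 and the last 4 each with the next. With GR244DO at 4 h it was RVE2 (19.6 RPKM), RVE4 (7.42), PRR7 (5.15), LNK1 (2.43), LNK2 (1.01), RVE1 (0.845), RVE8 (0.333), CCA1 (0.132), LHY (0.123) and PRR9 (0.114), where LNK2 overlapped with RVE1 and the last 3 overlapped.

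**Figure D1:**
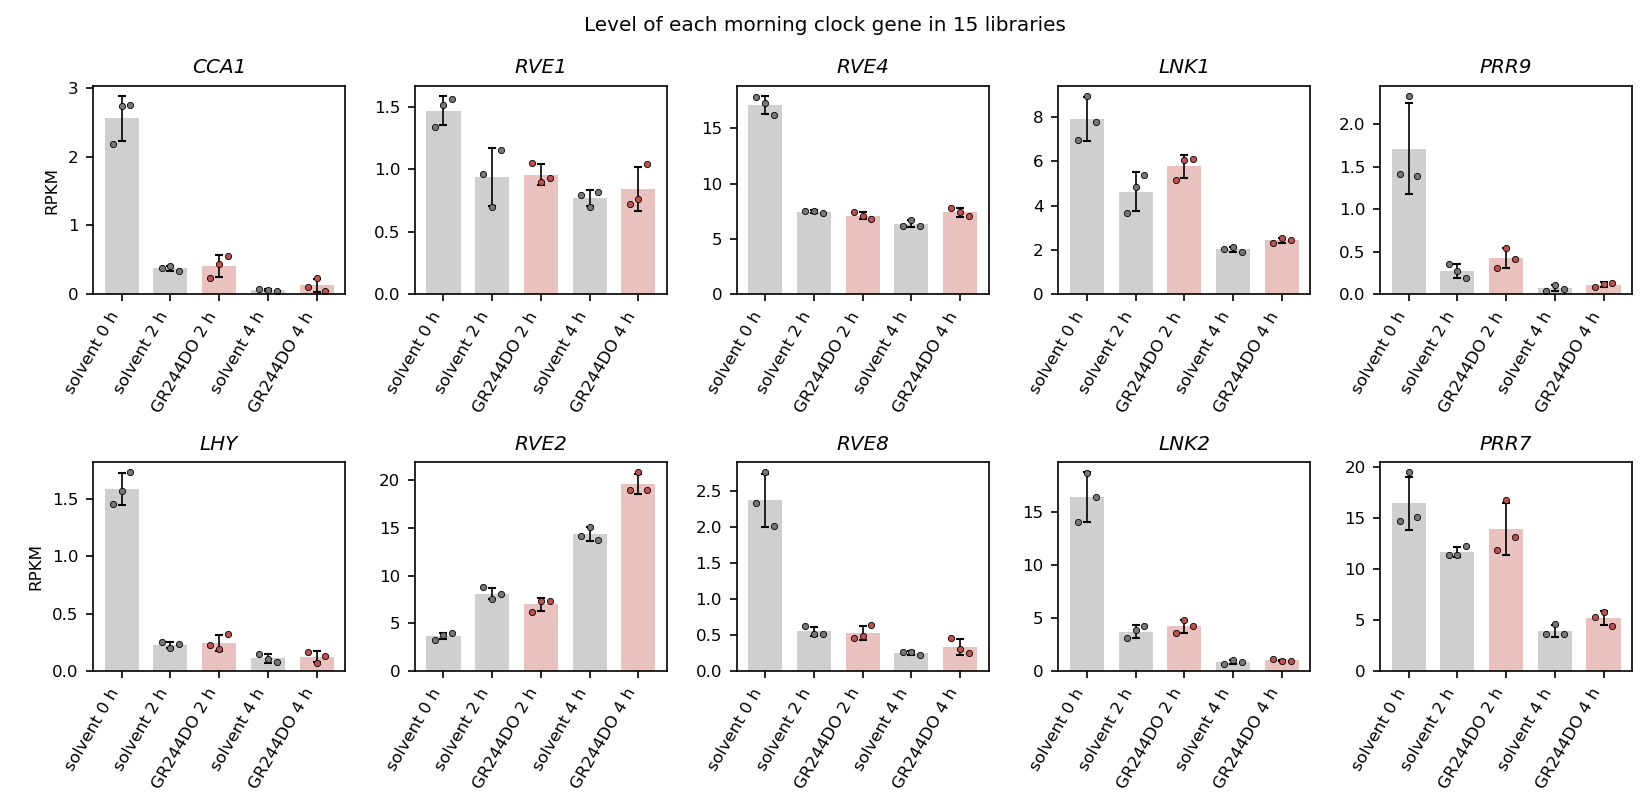
RPKM of each of the 10 genes (y axis, a scale of its own per gene, starting at 0) in the 5 groups. Points are the 3 libraries of a group, bars their mean and whiskers the SD; grey is solvent and red is GR244DO. RVE2 climbs from 3.65 to 14.3 RPKM in solvent and 19.6 RPKM with GR244DO, while the other 9 genes have their highest group at 0 h.

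Upstream DNA of 5 genes is shown because their transcripts mark the extremes of the data. CCA1, LHY and PRR9 were the lowest at 4 h, LNK2 had the largest change of the 10 on the log2(RPKM + 1) scale (solvent at 4 h against 0 h), and RVE2 alone rose. Each sequence is the 300 bases before the annotated gene start in RefSeq TAIR10.1, 5′ to 3′ on the gene's own strand, with no other annotated gene in it. Positions come from TAIR10.1 alone, as the expression table holds none and the submitters' processing notes name TAIR10. Capitals mark matches on either strand to 4 clock-related motifs, none of which contains another: the evening element (AAAATATCT), the CCA1-binding site (AAAAATCT), the G-box (CACGTG), which light-signalling factors bind, and the site of the evening factor LUX (GATACG or GATTCG). The CCA1 stretch is chr2:19245291-19245590 on the plus strand, LHY is chr1:37872-38171 on the minus strand, PRR9 is chr2:19232307-19232606 on the plus strand, RVE2 is chr5:14753089-14753388 on the minus strand and LNK2 is chr3:20179071-20179370 on the minus strand.
CCA1: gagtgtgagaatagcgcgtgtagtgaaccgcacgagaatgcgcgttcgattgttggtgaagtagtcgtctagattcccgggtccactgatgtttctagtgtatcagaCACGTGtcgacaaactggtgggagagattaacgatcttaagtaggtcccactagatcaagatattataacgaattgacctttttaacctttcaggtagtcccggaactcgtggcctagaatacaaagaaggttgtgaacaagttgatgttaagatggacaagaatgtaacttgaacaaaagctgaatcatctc
LHY: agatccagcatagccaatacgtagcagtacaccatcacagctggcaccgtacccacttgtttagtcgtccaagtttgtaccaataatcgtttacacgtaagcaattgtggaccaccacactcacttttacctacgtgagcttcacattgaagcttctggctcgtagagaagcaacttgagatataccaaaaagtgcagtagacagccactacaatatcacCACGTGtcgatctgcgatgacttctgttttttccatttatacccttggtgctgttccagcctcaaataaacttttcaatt
PRR9: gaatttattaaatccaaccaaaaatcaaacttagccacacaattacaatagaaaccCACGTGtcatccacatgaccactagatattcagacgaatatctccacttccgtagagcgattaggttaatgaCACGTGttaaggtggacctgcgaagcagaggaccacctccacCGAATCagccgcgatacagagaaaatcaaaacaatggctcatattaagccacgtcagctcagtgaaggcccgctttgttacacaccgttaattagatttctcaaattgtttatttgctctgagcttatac
RVE2: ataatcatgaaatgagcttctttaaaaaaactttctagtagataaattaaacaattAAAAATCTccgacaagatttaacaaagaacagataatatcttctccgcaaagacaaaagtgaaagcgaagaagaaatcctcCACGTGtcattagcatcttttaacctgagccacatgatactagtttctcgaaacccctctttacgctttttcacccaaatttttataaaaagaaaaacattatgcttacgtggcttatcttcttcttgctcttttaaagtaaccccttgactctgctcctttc
LNK2: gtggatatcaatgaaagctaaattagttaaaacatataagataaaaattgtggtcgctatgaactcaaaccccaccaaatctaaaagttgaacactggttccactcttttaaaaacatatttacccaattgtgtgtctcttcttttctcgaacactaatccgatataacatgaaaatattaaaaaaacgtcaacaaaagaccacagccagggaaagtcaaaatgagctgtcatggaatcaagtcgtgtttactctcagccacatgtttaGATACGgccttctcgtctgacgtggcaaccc

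A G-box lay in the upstream 300 bases of 6 of the 10 genes, namely CCA1, LHY, RVE1, RVE2, PRR9 and PRR7, and PRR9 held 2. Of the upstream stretches of the same length of all 27443 nuclear protein-coding genes, 7.09% held one. The CCA1-binding site was found in RVE2 alone (7.94% of all genes), 244 to 237 bases before its start. A LUX site was found in RVE4, LNK2 and PRR9 (14.3% of all genes), and in PRR9 it lay 130 to 125 bases before the start, downstream of both G-boxes. The evening element was in none of the 10 (2.79% of all genes). RVE8 and LNK1 held no match to any of the 4. The stretches of RVE4 and LNK1 overlap neighbouring genes. These are matches of letters, given as a description.

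**Figure D2:**
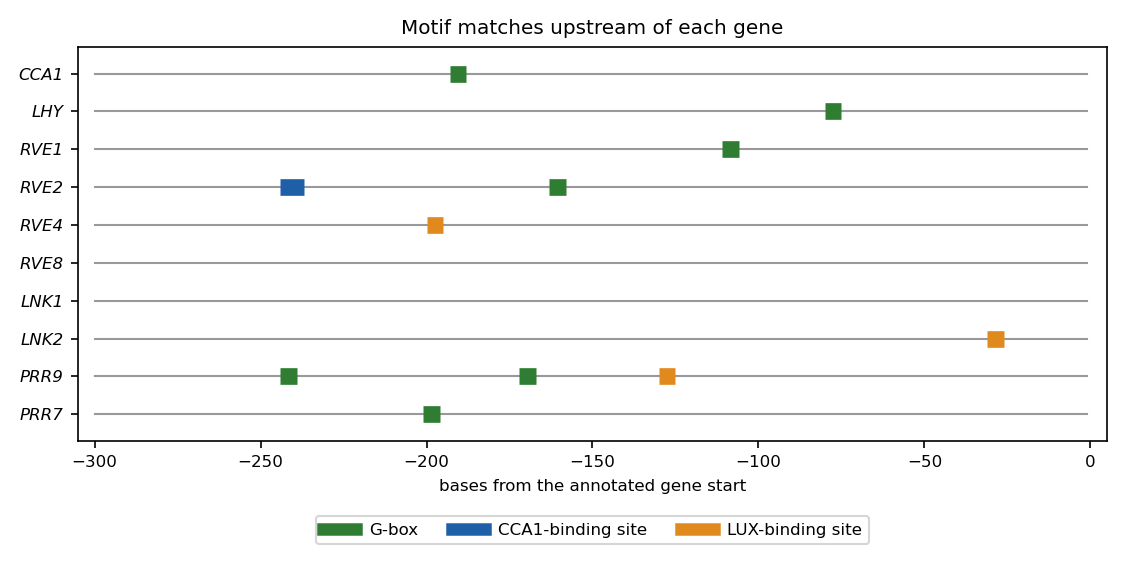
Positions of motif matches in the 300 bases before the annotated start of each gene (x axis, bases from the start; 1 line per gene). Green boxes are G-boxes, blue the CCA1-binding site and orange the LUX site; 6 genes hold a G-box, and the lines of RVE8 and LNK1 are empty.

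The solvent series asks how these genes ran during the 4 h without hormone. From 0 h to 2 h, 9 of the 10 genes fell and RVE2 rose (limma on log2(RPKM + 1), Benjamini-Hochberg adjusted p under 0.05 over 19155 genes), against 9.66% of all tested genes lower and 19.0% higher. From 0 h to 4 h it was again 9 lower and RVE2 higher, against 15.4% lower and 28.7% higher of all genes. From 2 h to 4 h, 6 genes fell and RVE2 rose, against 9.50% lower and 11.8% higher. The median log2 difference of the 10 was -1.07, -1.37 and -0.28 in these comparisons, where the median of all genes was 0.07, 0.07 and -0.0026. CCA1, LHY, RVE8 and PRR9 passed the filter on low values, 1 RPKM in 3 libraries, only through the 0 h group, so their fall from 0 h is built into their being tested; with no filter the counts from 0 h were also 10 of 10. With 3 reads as the floor of detection, 1 library of CCA1 and 2 of PRR9 in solvent at 4 h were at or under it.

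CCA1, a MYB repressor at the core of the loop, was at 2.18, 2.74 and 2.75 RPKM in solvent at 0 h. At 2 h it was at 0.378, 0.410 and 0.342 RPKM, and at 4 h at 0.0797, 0.0594 and 0.0508 RPKM, the last from 5, 4 and 3 reads. No library of a later time reached any of an earlier one. The ratio of mean RPKM, the fold used throughout, was 6.79-fold lower at 2 h than at 0 h (log2(RPKM + 1) difference -1.37, SE 0.10, adjusted p = 7.3e-08). It was 40.4-fold lower at 4 h than at 0 h, with a counting interval of 22.9 to 78.8 on the summed reads (exact binomial, 95%, counting error only). The filter kept CCA1 only through its 0 h level, so the p-value of its fall from 0 h is a description. Between 2 h and 4 h the RPKM ratio was 5.95-fold, but the difference on the log2(RPKM + 1) scale was only -0.37 (adjusted p = 0.0178), since that scale compresses levels under 1. This last call was lost without solvent 2 h replicate 2 (0.0589), without solvent 4 h replicate 3 (0.0565) and with the near-identical pairs averaged (0.112).

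LHY, the closest relative of CCA1, was at 1.45, 1.57 and 1.73 RPKM at 0 h, at 0.249, 0.198 and 0.237 RPKM at 2 h and at 0.150, 0.108 and 0.0736 RPKM at 4 h in solvent. Again no ranges overlapped. The mean was 6.95-fold lower at 2 h (log2 difference -1.07, SE 0.09, adjusted p = 1.2e-07) and 14.3-fold lower at 4 h than at 0 h, with a counting interval of 9.86 to 21.7. As for CCA1, the filter kept LHY only through 0 h, so that p-value is a description. From 2 h to 4 h the mean went from 0.228 to 0.110 RPKM, which missed the threshold (log2 difference -0.15, adjusted p = 0.242) and passed it in limma-voom on recovered reads (-1.03, adjusted p = 0.0297). LHY and CCA1 thus lost similar shares of their level in the first interval, and CCA1 had the lower mean of the pair by 4 h.

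RVE2 was the exception of the family. In solvent it was at 3.28, 3.72 and 3.97 RPKM at 0 h, at 8.75, 7.55 and 8.04 RPKM at 2 h and at 14.1, 15.1 and 13.8 RPKM at 4 h. Each later group lay wholly above the earlier one. It rose 2.22-fold from 0 h to 2 h (log2 difference 0.97, SE 0.08, adjusted p = 2.7e-07) and 1.77-fold from 2 h to 4 h (0.75, SE 0.08, adjusted p = 8.9e-06), so that it stood 3.92-fold above its starting level. The other 9 genes fell over the same hours. Without the hour of harvest, the phase that gives the 10 genes their name could not be checked for RVE2 or for the others.

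RVE4, an activator of evening genes, was at 17.8, 17.3 and 16.2 RPKM at 0 h. It was at 7.57, 7.52 and 7.32 RPKM at 2 h and at 6.19, 6.71 and 6.19 RPKM at 4 h in solvent. Nearly all of its decrease lay in the first interval: 2.29-fold lower at 2 h (log2 difference -1.09, SE 0.07, adjusted p = 5.1e-09) and 1.17-fold lower from 2 h to 4 h (-0.20, SE 0.07, adjusted p = 0.039). The small second step was lost when single libraries were left out, among them each of the 3 of solvent at 2 h (0.0684 to 0.0997), solvent 4 h replicates 1 (0.127) and 3 (0.126) and GR244DO 4 h replicate 2 (0.0511). It was also lost with the near-identical pairs averaged (0.235), with quantile normalization (0.0814) and in a fit of the compared groups only (0.0763). RVE8, the other activator, was at 2.33, 2.76 and 2.02 RPKM at 0 h, at 0.622, 0.506 and 0.514 RPKM at 2 h and at 0.262, 0.269 and 0.223 RPKM at 4 h. It was 4.33-fold lower at 2 h (log2 difference -1.12, SE 0.10, adjusted p = 3.8e-07) and 9.43-fold lower at 4 h than at 0 h. The filter kept RVE8 only through 0 h, so that p-value is a description. Its second step, 2.18-fold (-0.31, adjusted p = 0.0363), was lost without each of the 6 libraries of solvent at 2 h and 4 h in turn (0.0615 to 0.105) and with the pairs averaged (0.152).

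RVE1, which links the clock to auxin synthesis, had the smallest ratio of the 10 between 0 h and 4 h, 1.91-fold. It was at 1.34, 1.51 and 1.56 RPKM at 0 h, at 0.963, 0.697 and 1.16 RPKM at 2 h and at 0.793, 0.700 and 0.820 RPKM at 4 h in solvent. It was 1.57-fold lower at 2 h than at 0 h (log2 difference -0.36, SE 0.10, adjusted p = 0.014), a call lost without solvent 2 h replicate 2 (0.0857) and in a fit of the compared groups only (0.0546). Its 2 h and 4 h ranges overlapped (adjusted p = 0.408). By annotation 11.2% of RVE1's exon bases lie under an opposite-strand gene, AT5G17305. The strand of counting is not given in the sources used here, so reads of that stretch cannot be told apart.

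LNK1 and LNK2, coactivators that the RVE activators bring to DNA, fell at different rates. LNK2 was at 14.0, 18.7 and 16.5 RPKM at 0 h, at 3.07, 3.84 and 4.22 RPKM at 2 h and at 0.675, 1.02 and 0.860 RPKM at 4 h in solvent. Its 2 steps were of like size, 4.42-fold and 4.36-fold lower, and by 4 h it was 19.3-fold lower than at 0 h (log2 difference -3.23, SE 0.12, adjusted p = 5.35e-12). LNK1 was at 6.96, 8.94 and 7.78 RPKM at 0 h, at 3.67, 4.82 and 5.38 RPKM at 2 h and at 2.06, 2.14 and 1.90 RPKM at 4 h. It fell 1.71-fold in the first interval (-0.67, SE 0.11, adjusted p = 0.000257) and 2.27-fold in the second (-0.88, SE 0.11, adjusted p = 3.6e-05). No ranges of successive times overlapped for either gene. Opposite-strand genes cover 9.19% of the exon bases of LNK1 and 3.18% and 1.5% of those of LNK2, with the same limit as for RVE1.

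PRR9, the first of the pseudo-response regulators to act, was at 1.41, 2.33 and 1.39 RPKM at 0 h, at 0.353, 0.278 and 0.191 RPKM at 2 h and at 0.0409, 0.114 and 0.0652 RPKM at 4 h in solvent. It was 6.25-fold lower at 2 h (log2 difference -1.07, SE 0.12, adjusted p = 4.6e-06) and 23.3-fold lower at 4 h than at 0 h, with a counting interval of 12.3 to 45.4. The filter kept PRR9 only through 0 h, so that p-value is a description. The step from 2 h to 4 h rested on 45 and 11 reads in all and missed the threshold (-0.25, adjusted p = 0.155), but passed it with limma-voom (-1.79, adjusted p = 0.0122) and with a pseudocount of 0.1 (0.0152). PRR7, its partner, had the larger of its 2 steps in the second interval. It was at 14.7, 19.5 and 15.1 RPKM at 0 h, at 11.4, 11.3 and 12.2 RPKM at 2 h and at 3.58, 4.62 and 3.65 RPKM at 4 h. The first step was 1.41-fold (-0.45, SE 0.13, adjusted p = 0.0144), and that call was lost without solvent 0 h replicate 2 (0.0661), the library with the highest PRR7, and with the pairs averaged (0.0525). The second step was 2.95-fold (-1.36, SE 0.13, adjusted p = 1.6e-06).

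The size of the 2 steps was then compared directly, as the change from 2 h to 4 h minus the change from 0 h to 2 h, a comparison chosen after the values were seen. On the log2(RPKM + 1) scale 5 genes had the larger fall first (CCA1, LHY, RVE4, RVE8 and PRR9, against 4.45% of all genes with a difference in that direction) and PRR7 had the larger fall second (6.72% of all genes). CCA1, LHY, RVE8 and PRR9 were tested only because of their 0 h level, which favours a large first fall, so their part of this count is a description; the count was also 6 with no filter. The pseudocount bears on it too, because these 4 genes were under 1 RPKM at 2 h. In limma-voom on recovered reads, which adds none of that size but keeps the same filter and its limit for LHY, 3 genes passed. They were LHY (difference 1.77, adjusted p = 0.0204), RVE4 (0.96, adjusted p = 0.000102) and PRR7 (-1.08, adjusted p = 0.0062). On that scale LHY fell by 2.80 and then by 1.03, RVE4 fell by 1.19 and then by 0.23, and PRR7 fell by 0.48 and then by 1.56. CCA1 fell by 2.73 and then by 2.45 and LNK2 fell by 2.13 in both intervals, and neither pair of steps passed the test of their difference in limma-voom (adjusted p = 0.832 and 0.992). On the log2(RPKM + 1) scale LNK2 had the larger fall first without passing (0.54, adjusted p = 0.111), and it passed with quantile normalization (0.62, adjusted p = 0.0317), median-of-ratios scaling (0.62, adjusted p = 0.0395) and the gene length trend removed (0.77, adjusted p = 0.00293). The SE of the limma-voom difference was 0.65 for CCA1 and 0.28 for LNK2, so the CCA1 steps in particular were measured loosely. The PRR7 call was lost without solvent 2 h replicate 3 (0.0708), and that of PRR9 without solvent 2 h replicate 2 (0.059) or 3 (0.0867). With the pairs averaged the calls of RVE8 (0.0664), PRR9 (0.136) and PRR7 (0.136) were lost. With a pseudocount of 0.01 those of CCA1 (0.856), LHY (0.152), RVE8 (0.196) and PRR9 (0.57) were lost.

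**Figure D3:**
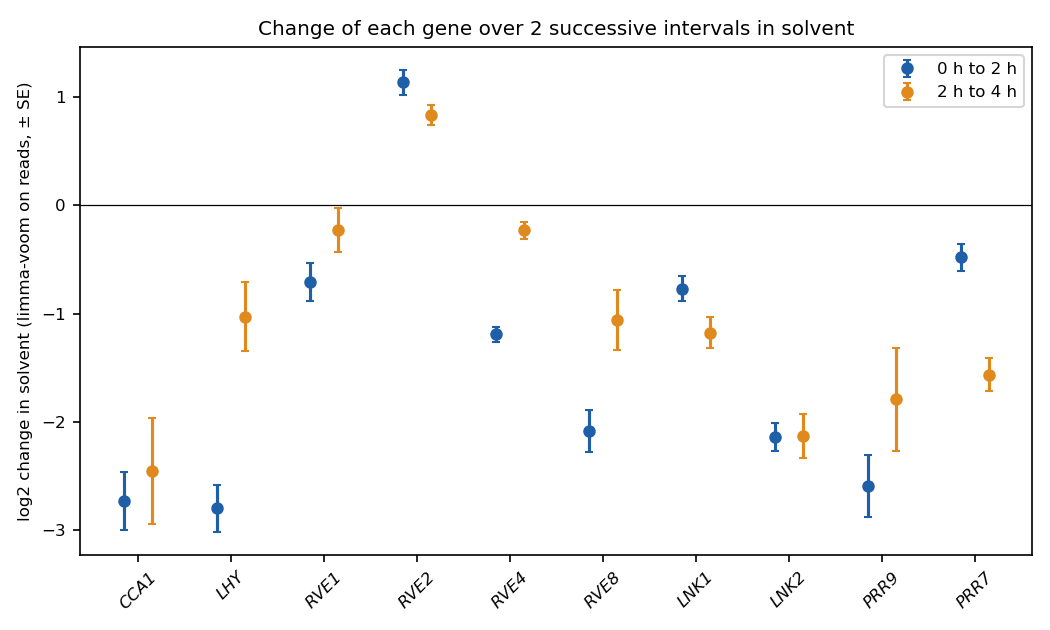
Log2 change of each gene in solvent from 0 h to 2 h (blue) and from 2 h to 4 h (orange), from limma-voom on recovered reads; points are estimates and whiskers are ± 1 SE. PRR7 has its larger fall second (0.48, then 1.56), RVE4 and LHY have theirs first, and RVE2 is above 0 in both intervals. CCA1, LHY, RVE8 and PRR9 were tested only because of their 0 h level, which favours a large first fall.

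Ratios within a library, which do not depend on how libraries were scaled, showed partners coming apart. RVE4 over RVE8, in RPKM, was 7.31 ± 0.93 in solvent at 0 h, 13.8 ± 1.4 at 2 h and 25.4 ± 2.1 at 4 h (SD, n = 3), and the ranges of the 3 times did not overlap. LNK1 over LNK2 was 0.482 ± 0.012, 1.24 ± 0.04 and 2.46 ± 0.52 (SD, n = 3), so that LNK2 was the higher of the pair at 0 h and the lower from 2 h on in every library. RVE2 over RVE4 was 0.215 ± 0.031, 1.09 ± 0.08 and 2.25 ± 0.03 (SD, n = 3). PRR7 over PRR9 was 9.86 ± 1.33 at 0 h and 45.7 ± 16.5 at 2 h, and then 61.2 ± 23.9 at 4 h, where the 2 h and 4 h ranges overlapped. CCA1 over LHY was 1.61 ± 0.13 and 1.68 ± 0.34 at 0 h and 2 h and 0.591 ± 0.086 at 4 h (SD, n = 3), where each CCA1 value rested on 5 reads or fewer. These ratios are given as a description, with no test. Their size at a given time depends on the gene lengths used, while their change over time does not.

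**Figure D4:**
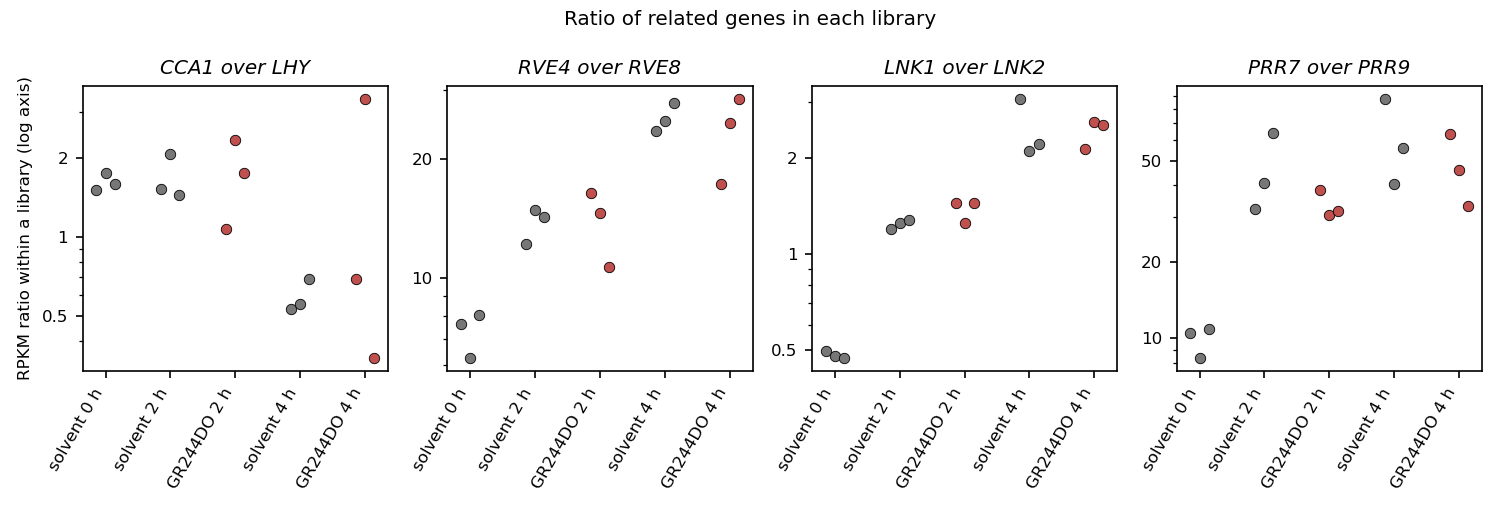
RPKM of 1 gene over that of its partner in each library (y axes, log scale), for CCA1 over LHY, RVE4 over RVE8, LNK1 over LNK2 and PRR7 over PRR9; grey points are solvent and red points GR244DO, 3 libraries a group. In solvent LNK1 over LNK2 goes from 0.482 to 2.46 and RVE4 over RVE8 from 7.31 to 25.4, and with GR244DO at 4 h CCA1 over LHY spans 0.345 to 3.35, from 4 to 17 CCA1 reads a library.

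The comparison of GR244DO with solvent at the same time asks which transcripts respond to the strigolactone. At 2 h none of the 10 genes passed (limma), against 1.30% of all genes in either direction, and limma-voom called none either. At an unadjusted p under 0.05 there were 2, RVE2 and LNK1, against 3510 of all 19155 tested genes. RVE2 was at 6.21, 7.36 and 7.35 RPKM with GR244DO and at 8.75, 7.55 and 8.04 RPKM with solvent, ranges that did not overlap (log2 difference -0.19, SE 0.08, adjusted p = 0.235). LNK1 was at 5.16, 6.04 and 6.10 RPKM with GR244DO and 3.67, 4.82 and 5.38 RPKM with solvent (0.28, SE 0.11, adjusted p = 0.208). For the other 8 genes the 95% intervals of the log2 difference reached from no lower than -0.23 (RVE8) to no higher than 0.50 (PRR7). CCA1 was at 0.414 RPKM with GR244DO and 0.377 with solvent, and LHY at 0.245 and 0.228. The limma interval for CCA1 was -0.19 to 0.25 on the log2(RPKM + 1) scale. PRR9 was at 0.309, 0.546 and 0.414 RPKM with GR244DO and at 0.353, 0.278 and 0.191 RPKM with solvent, which overlapped (0.16, SE 0.12, adjusted p = 0.469).

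At 4 h RVE2 was the 1 gene of the 10 that passed, against 1710 of all 19155 genes in either direction and 4.69% of all genes higher. It was at 19.0, 20.8 and 19.0 RPKM with GR244DO, from 491, 622 and 686 reads, and at 14.1, 15.1 and 13.8 RPKM with solvent, from 370, 426 and 340 reads. The groups did not overlap, and RVE2 was 1.37-fold higher with GR244DO (log2 difference 0.43, SE 0.08, 95% interval 0.25 to 0.60, adjusted p = 0.0035). Limma-voom gave 0.45 (adjusted p = 0.002). The call held with each of the 15 libraries left out (adjusted p up to 0.0268), and was lost with the near-identical pairs averaged (0.40, adjusted p = 0.092). The response at 4 h minus that at 2 h was 0.62 for RVE2 (SE 0.12, adjusted p = 0.0103), where 0.961% of all genes passed in that direction. With the pairs averaged it was also 0.62, with adjusted p = 0.139. None of the other 9 passed in the test of that difference by limma or limma-voom, against 329 of all 19155 genes by limma. RVE4 alone of these 9 was at an unadjusted p under 0.05, against 2123 of all genes.

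The other 9 genes did not pass at 4 h, although all had log2 differences above 0, 5 of these differences smaller than their SE (CCA1, LHY, RVE1, RVE8 and PRR9); the median of the 10 was 0.10 and that of all genes 0.02. RVE4 was at 7.83, 7.40 and 7.03 RPKM with GR244DO and at 6.19, 6.71 and 6.19 RPKM with solvent, without overlap (0.19, SE 0.07, adjusted p = 0.0822). PRR7 was at 5.27, 5.78 and 4.41 RPKM against 3.58, 4.62 and 3.65 RPKM (0.31, SE 0.13, adjusted p = 0.143). LNK1 was at 2.31, 2.52 and 2.46 RPKM against 2.06, 2.14 and 1.90 RPKM, again without overlap (0.18, adjusted p = 0.343). CCA1 had 7, 17 and 4 reads with GR244DO and 5, 4 and 3 with solvent, a ratio of 2.01 on summed reads with a counting interval of 0.989 to 4.33. Without GR244DO replicate 2, the library with 17 reads, the ratio was 1.17 with an interval of 0.467 to 2.89. Without GR244DO replicate 3, the library with 4 reads, it was 2.84 with an interval of 1.37 to 6.23. The ratio of CCA1 thus hung on single libraries with few reads, and these counts cannot decide whether CCA1 responded at 4 h. For LHY the ratio was 1.1 with an interval of 0.657 to 1.85. PRR9 had 4, 7 and 9 reads with GR244DO and 2, 6 and 3 with solvent, a ratio of 1.56 with an interval of 0.715 to 3.61.

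**Figure D5:**
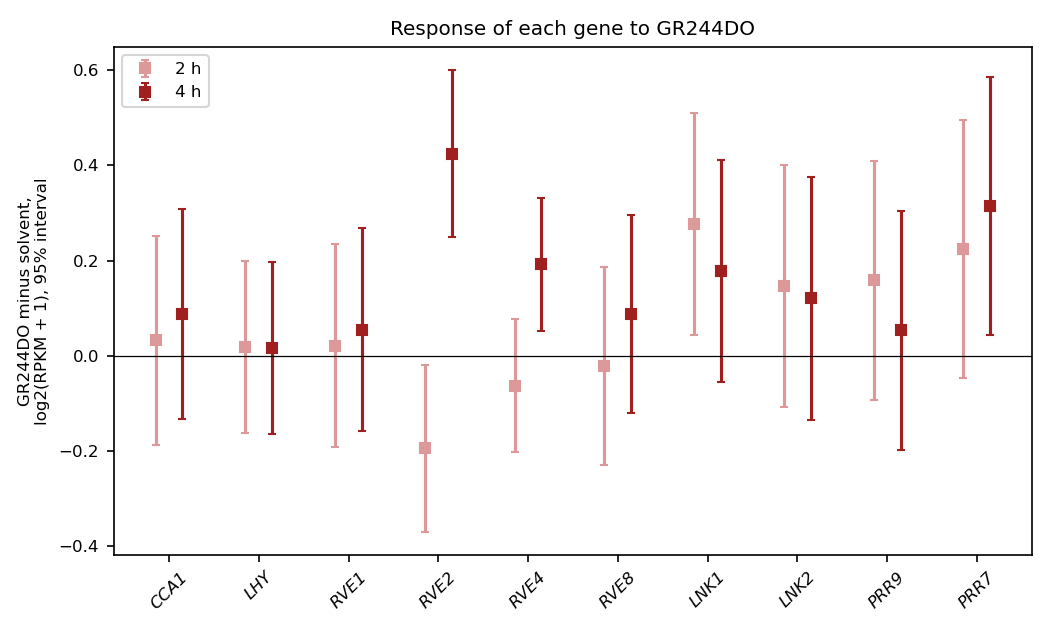
Difference between GR244DO and solvent for each gene at 2 h (light) and 4 h (dark), on the log2(RPKM + 1) scale; squares are limma estimates and whiskers 95% intervals before any adjustment for multiple tests. RVE2 lies at -0.19 at 2 h and 0.43 at 4 h, and at 4 h it is the 1 gene of the 10 past the adjusted threshold. The scale compresses levels under 1 RPKM, so the whiskers of genes below that level do not bound their fold.

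Under GR244DO the course from 2 h to 4 h can be set beside that in solvent. Of the 10 genes 5 fell (CCA1, LNK1, LNK2, PRR9 and PRR7, against 10.8% of all genes lower) and RVE2 rose (8.01% higher). LNK2 went from 3.58, 4.84 and 4.21 RPKM to 1.08, 0.971 and 0.968 RPKM (4.18-fold lower, adjusted p = 9.9e-07), LNK1 was 2.37-fold lower (adjusted p = 1.3e-05) and PRR7 2.70-fold lower (adjusted p = 4.2e-06). RVE2 was 2.81-fold higher at 4 h than at 2 h with GR244DO, and 1.77-fold in solvent. The calls of CCA1 (adjusted p = 0.0429) and PRR9 (0.0495) lay at the threshold. The CCA1 call was lost without replicate 2 or 3 of solvent at 2 h (0.0551 and 0.0526), 1 or 3 of solvent at 4 h (0.0549 and 0.0548), 2 or 3 of GR244DO at 2 h (0.119 and 0.174) or 1 or 3 of GR244DO at 4 h (0.112 and 0.166). The PRR9 call was lost without replicate 2 or 3 of solvent at 2 h (0.0636 and 0.0559), any of solvent at 4 h (0.0545 to 0.0626), 2 or 3 of GR244DO at 2 h (0.178 and 0.108) or any of GR244DO at 4 h (0.0884 to 0.132). Both were lost with the pairs averaged (0.0939 for CCA1 and 0.144 for PRR9). RVE4 was at 7.11 RPKM at 2 h and 7.42 RPKM at 4 h with GR244DO (adjusted p = 0.617). Whether the fall of RVE4 in solvent differed from this was part of the test of responses above, where RVE4 did not pass (0.26, SE 0.09, adjusted p = 0.267).

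Of 8 further genes of the same families or close to them, 7 were tested; 2 fell from 0 h to 2 h in solvent (9.66% of all genes) and 3 from 0 h to 4 h (15.4%), and 0 rose (19.0% and 28.7%; median log2 difference -0.17 at 4 h against 0 h, 0.07 for all genes). The 3 were LNK3, LNK4 and RVE7. LNK4, of the same small family as LNK1 and LNK2, went from 26.6 to 10.8 and 2.17 RPKM (12.3-fold lower at 4 h than at 0 h, adjusted p = 1.5e-13), and LNK3 from 5.53 to 1.14 and 0.601 RPKM (9.21-fold, adjusted p = 1.1e-10). RVE7 went from 4.50 to 4.86 and 2.74 RPKM (1.64-fold lower at 4 h than at 0 h, adjusted p = 0.00165). RVE5 and RVE6, from the activator branch of the family, are named after their values were seen and were not called between any of these times. In solvent RVE6 was at 6.34, 6.56 and 6.40 RPKM at 0, 2 and 4 h and RVE5 at 4.33, 3.47 and 3.74 RPKM. RVE3 was below the filter, at 0.0887 to 0.152 RPKM in the group means. None of the 7 passed for GR244DO in limma or limma-voom, against 249 and 1710 of all 19155 genes at 2 h and 4 h in limma. At an unadjusted p under 0.05 there were 2 at 2 h and 1 at 4 h, against 3510 and 4608 of all genes.

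The 12 evening genes, many of them targets of CCA1, LHY and the RVE activators, are set beside the 10. From 0 h to 2 h in solvent 8 of them rose and 0 fell (median log2 difference 0.72, 0.07 for all genes), against 19.0% higher and 9.66% lower of all genes. ELF4 went from 18.1 to 75.1 RPKM (log2 difference 1.99, SE 0.06, adjusted p = 2.6e-12), TOC1 from 19.2 to 44.6 RPKM (1.17, adjusted p = 7.3e-10) and LUX from 43.3 to 74.8 RPKM (0.78, adjusted p = 5.1e-09). From 2 h to 4 h 2 rose and 5 fell, against 11.8% and 9.50% of all genes, and 3 fell with the near-identical pairs averaged, where the calls of TOC1 (0.218) and LUX (0.186) were lost. It was also 3 without solvent 2 h replicate 2 or 3 or solvent 4 h replicate 1 or 3. PRR5 went from 19.4 to 7.56 RPKM (-1.25, adjusted p = 9.1e-09), GI from 38.4 to 19.1 RPKM and FKF1 from 24.9 to 12.4 RPKM. With GR244DO 0 of 12 passed at 2 h in limma or limma-voom, against 249 of all 19155 genes in limma. At an unadjusted p under 0.05 there were 4 at 2 h, against 3510 of all genes. At 4 h 4 of the 12 were called higher, against 4.69% of all genes. PRR5, a later relative of PRR7 and PRR9, was at 11.4 RPKM with GR244DO and 7.56 with solvent at 4 h (0.53, SE 0.07, adjusted p = 0.000199), ELF4 at 121.7 and 94.9 RPKM (0.36, adjusted p = 0.00178) and TOC1 at 46.0 and 38.8 RPKM (0.24, adjusted p = 0.0178). The TOC1 call was lost with median-of-ratios scaling (0.0532), with the gene length trend removed (0.233), without solvent 4 h replicate 1 (0.0668) or 2 (0.0557) and without GR244DO 4 h replicate 1 (0.0747) or 2 (0.0585). With the pairs averaged 2 of the 4 calls were lost, TOC1 (0.171) and FKF1 (0.255), and the count was also 2 without solvent 4 h replicate 1 or GR244DO 4 h replicate 1 or 2. The difference between the 4 h and 2 h responses passed for 0 of the 12 in limma or limma-voom, against 329 of all 19155 genes in limma. At an unadjusted p under 0.05 there were 4, against 2123 of all genes.

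The genes whose course over the 15 libraries was most like that of the mean of CCA1 and LHY, among 13343 tested genes at a mean of 5 RPKM or more, were PDS1 (Pearson r = 0.988 across libraries), PGR5 (0.985), PPDK (0.982), CP5 (0.981) and PGR5-LIKE A (0.980). PGR5, a protein of cyclic electron flow in the chloroplast, was at 95.5, 40.5 and 30.5 RPKM in solvent at 0, 2 and 4 h. Those most like PRR9 were AT1G62250 (0.982), ABCF5 (0.974), ATH13 (0.973), HEMA1 (0.972) and PGR5-LIKE A (0.969). HEMA1, which encodes the reductase that starts chlorophyll and haem synthesis, was at 49.8, 25.8 and 18.8 RPKM in the same groups. The libraries of a group share time and treatment, so these values describe a common course over 5 group levels and carry no test.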

How the data were processed

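RNA was measured by sequencing in 15 libraries. The deposited RPKM table (reads per 1000 bases of gene and per 1000000 assigned reads) was made by the authors; mapping with STAR to TAIR10, counting with featureCounts and testing with DESeq are named in the submitters' processing notes, while no source used here gives their versions or the strand of counting. 1 entry without a gene name was left out. Multiplied by a recovered gene length and library total, 100% of 282300 values in 18820 genes with over 50 reads were whole reads within 0.02 (0 of 1000 genes with altered totals). These reads gave depths and an added alternative, limma-voom; the test for RPKM stayed the main one.

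Genes at 1 RPKM or more in 3 libraries (19155) were fitted with limma 3.58.1 in R 4.3.3 on log2(RPKM + 1), 1 fit of all libraries by group with a variance trend, and called at Benjamini-Hochberg adjusted p under 0.05 with no minimum fold. The code was tested on simulated data. At 2 h each GR244DO library had its highest residual correlation with the solvent library of its own number (0.179, 0.133 and 0.101). These values are weak, so pairing by replicate number at 2 h remains uncertain. In the other comparisons the numbers did not pair the libraries. The main fit used no pairing at any time, and a fit with a replicate block is among the alternatives. All 10 genes are named everywhere, and of the listed clock genes up to 3 per class and comparison, those with the smallest adjusted p. The 10 genes and the lists were chosen with earlier results of these data known. Floors and counting intervals cover counting error only. Motifs and positions came from RefSeq TAIR10.1.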

Additional observations from a re-analysis of the deposited data

Results flagged for a closer look

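RVE2 drew attention because its responses to GR244DO at 2 h and at 4 h differed in a test of that difference: the response at 4 h minus the response at 2 h was 0.62 on the log2(RPKM + 1) scale (SE 0.12, 95% interval 0.37 to 0.87, limma adjusted p = 0.0103). RVE2 was at 6.97 ± 0.66 RPKM with GR244DO and 8.11 ± 0.60 with solvent at 2 h, and at 19.6 ± 1.06 RPKM with GR244DO and 14.3 ± 0.71 with solvent at 4 h (SD, n = 3). Over the alternatives the adjusted p ranged from 0.00297 to 0.139, the highest with the 3 near-identical pairs averaged.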

How the results depend on the processing

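The 10 genes were followed under 28 alternatives, of which 15 left out 1 library each. Member differences smaller than their own SE (5 at 2 h and 5 at 4 h for GR244DO, 2 between the times of GR244DO and 8 in the difference of responses) were not followed, since they carry no direction, and none of the others turned its direction. Counts of the 10 genes called that moved by over 1.5 times are given first, with the range over libraries left out. From 0 h to 2 h in solvent the count of 10 became 5 at a filter of 5 RPKM, where only 5 of the genes are tested, and was 9 to 10 with libraries left out. From 0 h to 4 h it became 5 at that filter. From 2 h to 4 h the count of 7 became 4 with a minimum change of 1.5-fold and 4 with the pairs averaged, and was 4 to 7 with libraries left out (4 without solvent 2 h replicate 2 or solvent 4 h replicate 3). For GR244DO at 4 h the count of 1 became 3 with the replicate block, 0 with the minimum change and 0 with the pairs averaged. For the 2 times of GR244DO the count of 6 was 4 to 6 with libraries left out. Smaller moves came with the minimum change, which ended RVE1 and PRR7 from 0 h to 2 h, RVE1 from 0 h to 4 h, and CCA1 and PRR9 between the times of GR244DO. The CCA1 call between those times was also lost in a fit of the compared groups only (0.095) and with the gene length trend removed (0.0618). For the difference of responses the count of 1 became 0 with the pairs averaged. For the difference of the 2 solvent steps the count of 6 became 3 with a pseudocount of 0.1, 2 with one of 0.01, 2 at the filter of 5 RPKM, 3 with limma-voom and 3 with the pairs averaged, and was 4 to 6 with libraries left out. The genes the block added at 4 h were RVE4 (adjusted p = 0.0433) and PRR7 (0.0327). It also added LNK2 in the difference of steps (0.0315) and changed no other call of the 10, at 2 h included. The residuals of same-numbered libraries correlated at -0.183, 0.491 and 0.407 at 4 h, where replicate 1 did not correlate best with its own number, so the numbers do not pair those libraries. Over all genes, GR244DO called 249 at 2 h (1025 with the block, 67 with the pairs averaged) and 1710 at 4 h (2747 and 464). Pairs averaged, solvent calls went from 5494 to 3442 (0 h to 2 h) and from 4085 to 1713 (2 h to 4 h). Limma-voom, the pairs, the gene length trend, the pseudocount of 0.01 and read ratios with libraries left out were chosen after the data were seen. The cause of these shifts was not tested, other than the smaller number of genes or libraries in the settings that leave some out. Depth limits CCA1, LHY, RVE8 and PRR9 at 4 h, with 13 reads or fewer per solvent library.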

Other observations

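Of a further 10 clock outputs and cofactors, 6 rose, 1 fell and 3 did not pass from 0 h to 2 h in solvent, against 19.0% higher and 9.66% lower of all genes. From 0 h to 4 h 5 rose, 2 fell and 3 did not pass, against 28.7% higher and 15.4% lower. JMJD5, a histone demethylase tied to the evening part of the clock, went from 1.73 to 18.3 and 46.8 RPKM at 0, 2 and 4 h (log2 difference 4.13, SE 0.06, limma adjusted p = 9.9e-17 at 4 h against 0 h). COR27, a cold- and light-regulated clock component, went from 3.49 to 24.8 and 22.5 RPKM (2.39 at 4 h, adjusted p = 8.8e-14), and COR28, its relative, from 4.35 to 12.7 RPKM at 2 h (1.35, adjusted p = 5.3e-09). PIF5, a growth-promoting factor that binds the G-box, went from 45.8 to 37.7 and 20.9 RPKM (-1.09 at 4 h, adjusted p = 7.6e-09), and PIF4, its relative, from 21.8 RPKM at 2 h to 10.3 RPKM at 4 h (-1.01, adjusted p = 3.9e-07). With GR244DO 0 of the 10 passed at either time in limma or limma-voom, against 249 and 1710 of all 19155 genes at 2 h and 4 h in limma. At an unadjusted p under 0.05 there were 2 at 2 h and 1 at 4 h, against 3510 and 4608 of all genes.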
